A study of Caenorhabditis elegans with 6 samples.

Results

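The genes described here are 9 that encode structural proteins of meiotic chromosomes in the nematode Caenorhabditis elegans. They were taken by name (htp-1, htp-2, htp-3, him-3, rec-8, syp-1, syp-2, syp-3 and syp-4) from the 16262 genes of the deposited table, and all 9 are listed there. RNA came from whole young adults in 6 libraries. In 3 of them LARP-1, which binds RNA and belongs to the La-related proteins, carried APEX2 (knock-in allele yq637), and in the other 3 it carried GFP (knock-in allele yq636). APEX2 is a peroxidase that can tag RNA near it with biotin, and GFP lacks this activity. Both strains were grown at 20 °C, kept 2 h at 25 °C with biotin-aniline and given H2O2. The tag and its allele are therefore the labelled difference, and each strain stands for a single allele. An untagged strain and unlabelled worms were not analysed here. The titles speak of immunoprecipitation while the protocols describe no pull-down, so a difference may be one of recovery near LARP-1 or one of RNA level.

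In meiotic prophase each chromosome is folded into loops along a protein axis, made of cohesin and of proteins with a HORMA domain. The central region of the synaptonemal complex then joins the axes of paired homologs along their length, which in the worm is needed for nearly all crossovers. In an adult hermaphrodite these genes act in the germ cells of the gonad. HTP-3 is the HORMA protein that recruits the other 3, HIM-3, HTP-1 and HTP-2. REC-8 is a meiotic kleisin, the subunit that closes the cohesin ring. SYP-1, SYP-2, SYP-3 and SYP-4 build the central region and need one another to assemble.

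The values are normalized counts, gene read counts divided by 1 factor per library. The listed genes held 3824041 to 6414569 reads in a library, and the 9 genes had 87 to 739 reads each per library, so each rests on enough reads to be measured in all 6. Along the second principal component, with 19.5% of the variance, LARP-1::APEX2 replicate 1 stood at -28.3 and replicates 2 and 3 at 18.4 and 17.2. Differences without that library are therefore also given for htp-1, htp-3, plk-2, syp-5, him-14, com-1 and rfs-1. Germ cell RNA was present in all libraries: the P granule genes pgl-1 and glh-1 had at least 438 and 641 normalized counts, and the meiotic regulator gld-1 at least 8125. In whole animals, fewer germ cells and less RNA per germ cell cannot be told apart.

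Together the 9 RNAs were at nearly the same level in both strains. Their summed value was 2395, 2395 and 2452 normalized counts in LARP-1::APEX2 libraries and 2318, 2468 and 2529 in LARP-1::GFP libraries, so the groups overlapped. As a share of the listed reads the sum was 0.0526% ± 0.0026 with APEX2 and 0.0552% ± 0.0024 with GFP (SD, n = 3 each). All 9 genes passed the filter of a mean value of at least 10. Of them 1 fell with APEX2, 0 rose and 8 did not pass (limma, Benjamini-Hochberg adjusted p under 0.05 over 10534 genes), where 21.7% of all tested genes were called, 11.6% being higher and 10.1% lower. The median log2 difference of the 9 was -0.01, against 0.02 over all tested genes, and the differences ran from -0.37 to 0.38. Groups did not overlap for 2 of the 9, htp-3 and syp-4, both lower with APEX2, where 37.4% of all tested genes had groups that did not overlap, 19.9% being higher and 17.5% lower.

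**Figure D1:**
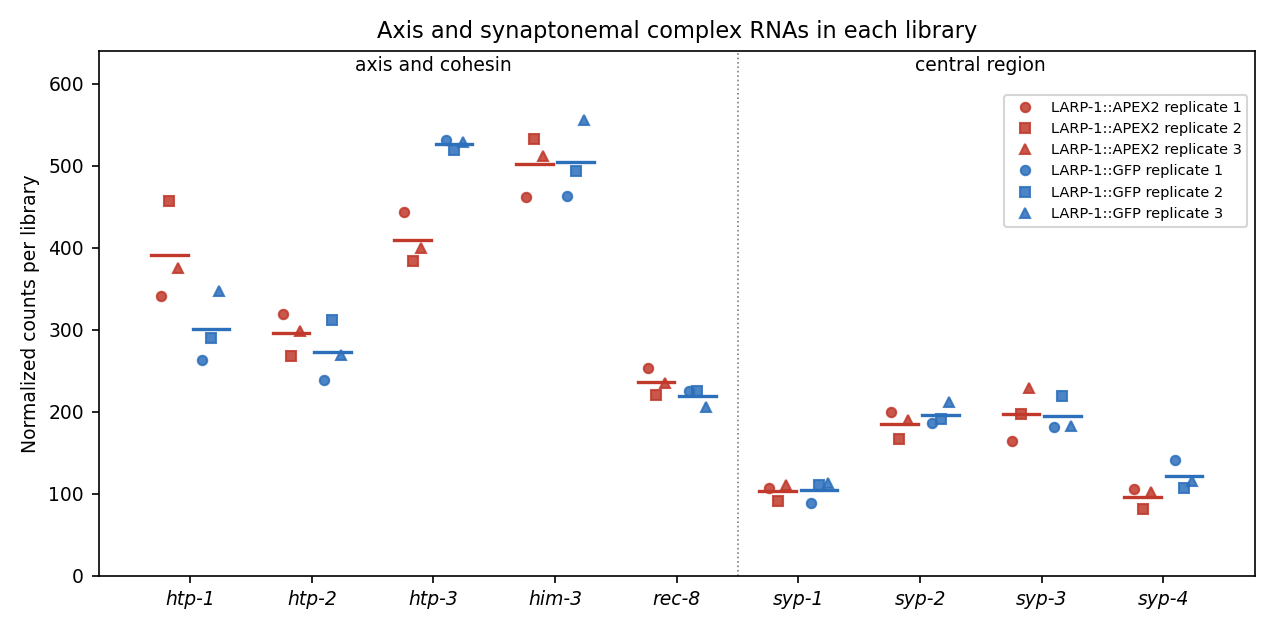
Normalized counts (y axis) of the 9 genes in each of the 6 libraries, LARP-1::APEX2 in red and LARP-1::GFP in blue, with symbols for replicates and bars for group means (n = 3). The LARP-1::APEX2 points of htp-3 lie between 383.5 and 443 and the LARP-1::GFP points between 519 and 531, with no overlap.

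The gene that fell was htp-3 (WBGene00002034, chromosome I, 4827072 to 4829791, plus strand, WBcel235; 9 exons), whose product sits at the base of the axis. It had 443, 383.5 and 399.9 normalized counts in LARP-1::APEX2 libraries and 531, 519 and 529 in LARP-1::GFP libraries. All 3 libraries with APEX2 lay under all 3 with GFP, and the GFP libraries lay close together. The means were 409 ± 30.8 with APEX2 and 526 ± 6.67 with GFP (SD, n = 3 each), a ratio of 0.777. The log2 difference was -0.37 ± 0.11 (SE; 95% interval -0.60 to -0.14; limma, adjusted p = 0.025). The count tests on the reads recovered from these values also called it, with -0.39 in edgeR (adjusted p = 0.018) and -0.38 in DESeq2 (adjusted p = 0.020). Among all tested genes edgeR called 10.6% higher and 10.4% lower, and DESeq2 called 9.65% higher and 9.06% lower. The call ended without any 1 of the GFP libraries (limma adjusted p = 0.085, 0.076 and 0.099 without replicates 1, 2 and 3) or without LARP-1::APEX2 replicate 2 (0.093), while the differences stayed between -0.43 and -0.32. Without LARP-1::APEX2 replicate 1 the difference was -0.43 (adjusted p = 0.0058).

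The ratio of htp-3 to another axis gene inside a library does not depend on how libraries are scaled; these ratios were chosen after the values had been seen. For 1 read of rec-8 there were 1.75, 1.74 and 1.70 reads of htp-3 in LARP-1::APEX2 libraries and 2.36, 2.30 and 2.57 in LARP-1::GFP libraries. The groups did not overlap, and the libraries of each strain lay near one another. For 1 read of him-3 there were 0.959, 0.721 and 0.782 reads of htp-3 in LARP-1::APEX2 libraries and 1.15, 1.05 and 0.953 in LARP-1::GFP libraries. Here LARP-1::APEX2 replicate 1 lay just above LARP-1::GFP replicate 3, so the groups touched.

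The HORMA gene him-3 (WBGene00001862, chromosome IV, 6977508 to 6978765, plus strand) encodes an axis protein that recombination between homologs requires. Its normalized counts were 462, 532 and 511 in LARP-1::APEX2 libraries and 463, 494 and 555 in LARP-1::GFP libraries. The groups covered largely the same range. The log2 difference was -0.01 ± 0.11 (95% interval -0.25 to 0.24; limma, adjusted p = 0.98). Its exons overlap those of prkl-1 on the other strand by 24 nt, and prkl-1 had at most 24.5 normalized counts in any library.

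The paralogs htp-1 (WBGene00002032, chromosome IV, 5390189 to 5391557, minus strand) and htp-2 (WBGene00002033, chromosome IV, 6419522 to 6420898, plus strand) have the same coding length, 1056 nt, and the same number of exons, 4. They lie 1027965 bases apart. HTP-1 is known to hold back synapsis between chromosomes that are not homologs, and HTP-2 shares part of its roles in cohesion. Their sequences are alike enough that reads may be split between them, so the single values are uncertain and the sum is the safer measure.

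Normalized counts of htp-1 were 341, 456 and 375 in LARP-1::APEX2 libraries and 263, 290.1 and 347 in LARP-1::GFP libraries. The groups overlapped slightly, since LARP-1::APEX2 replicate 1 lay under LARP-1::GFP replicate 3. The log2 difference, 0.38 ± 0.14 (95% interval 0.08 to 0.68), did not pass (limma, adjusted p = 0.070). Without LARP-1::APEX2 replicate 1 it was 0.47 and passed (adjusted p = 0.016), and without LARP-1::APEX2 replicate 2 it was 0.26 (adjusted p = 0.27).

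Normalized counts of htp-2 were 319, 268 and 299 in LARP-1::APEX2 libraries and 239, 311 and 269.5 in LARP-1::GFP libraries, again with overlap. Its log2 difference was 0.12 ± 0.13 (95% interval -0.17 to 0.40; limma, adjusted p = 0.58). The ratio of htp-1 to htp-2 reads was 1.07, 1.70 and 1.25 in LARP-1::APEX2 libraries and 1.10, 0.932 and 1.29 in LARP-1::GFP libraries, so LARP-1::APEX2 replicate 2 stood above the other 5.

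Summed, both paralogs had 659.9, 724 and 674 normalized counts in LARP-1::APEX2 libraries and 502, 602 and 617 in LARP-1::GFP libraries, and the groups did not overlap. Of all tested genes, 19.9% had groups that did not overlap and were higher with APEX2. The exact permutation test of the sum gave p = 0.1 (two-sided), the smallest that 3 libraries against 3 allow. On the scale of listed reads the groups did overlap, with LARP-1::APEX2 replicate 1 (0.0138%) under LARP-1::GFP replicate 3 (0.0141%). As a share of the listed reads the sum was 0.0150% ± 0.0011 with APEX2 and 0.0130% ± 0.0013 with GFP (SD, n = 3 each; exact permutation p = 0.2). Fitted as 1 gene among all others, the sum had a log2 difference of 0.26 ± 0.11 (95% interval 0.03 to 0.50) that did not pass (limma, adjusted p = 0.11).

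The cohesin gene rec-8 (WBGene00004333, chromosome IV, 13349122 to 13353193, minus strand) had 253, 220.2 and 235.2 normalized counts in LARP-1::APEX2 libraries and 225, 225 and 206 in LARP-1::GFP libraries. The groups overlapped by 1 library, LARP-1::APEX2 replicate 2. The log2 difference was 0.11 ± 0.13 (95% interval -0.16 to 0.38; limma, adjusted p = 0.58).

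**Figure D2:**
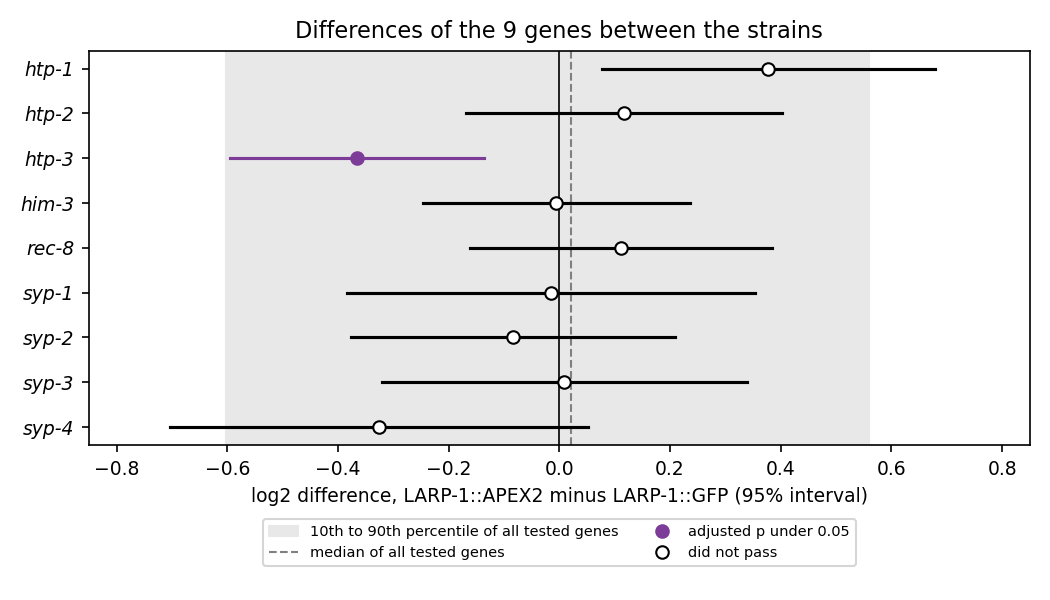
Log2 difference (x axis, LARP-1::APEX2 minus LARP-1::GFP, lines show 95% intervals from limma, n = 3 each) for each of the 9 genes, over a grey band from the 10th to the 90th percentile of all tested genes (-0.60 to 0.56). All 9 points lie inside the band, and only htp-3, at -0.37, is filled as called.

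Of the 4 central region genes 0 rose and 0 fell, where 21.7% of all tested genes were called. The 4 differences ran from -0.33 to 0.01. At an unadjusted limma p under 0.05, which 33.9% of all tested genes reached, there were 0 as well. The count tests also called 0 of the 4, where edgeR called 10.6% of all tested genes higher and 10.4% lower, and DESeq2 9.65% and 9.06%. With 4 genes, counts of 0 are not set apart from these shares. The lowest difference was that of syp-4 (WBGene00019247, chromosome I, 6847511 to 6849923, plus strand), with 106.1, 81.2 and 101.7 normalized counts in LARP-1::APEX2 libraries and 141, 106.4 and 115 in LARP-1::GFP libraries. The groups did not overlap, but by 0.36 normalized counts only, between LARP-1::APEX2 replicate 1 and LARP-1::GFP replicate 2. Its log2 difference of -0.33 ± 0.18 did not pass (95% interval -0.70 to 0.05; limma, adjusted p = 0.22). Without LARP-1::APEX2 replicate 2, or without LARP-1::GFP replicate 1, it was -0.21.

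The gene syp-1 (WBGene00006375, chromosome V, 16404274 to 16407701, plus strand) encodes the transverse element that reaches from the axis to the middle of the complex. It had 107, 90.5 and 110.7 normalized counts in LARP-1::APEX2 libraries and 88.4, 110.9 and 113 in LARP-1::GFP libraries. The groups overlapped fully, and the log2 difference was -0.01 ± 0.17 (95% interval -0.38 to 0.35; limma, adjusted p = 0.96). Of its 3053 exonic nt, 517 are shared on the same strand with F13A7.14, and how reads there were counted is not known. F13A7.14 itself rose, with 566, 388 and 419 normalized counts in LARP-1::APEX2 libraries and 237, 259.9 and 224 in LARP-1::GFP libraries (log2 difference 0.91 ± 0.14; limma, adjusted p = 0.00063); its part in the syp-1 value was not tested.

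The small coiled-coil gene syp-2 (WBGene00006376, chromosome V, 5536487 to 5537717, plus strand) had 199, 167 and 190.3 normalized counts in LARP-1::APEX2 libraries and 187, 192 and 211 in LARP-1::GFP libraries. Its log2 difference was -0.08 ± 0.14 (95% interval -0.38 to 0.21; limma, adjusted p = 0.71). The groups overlapped in part, with LARP-1::APEX2 replicate 2 under all others and LARP-1::GFP replicate 3 above all others.

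The gene syp-3 (WBGene00006377, chromosome I, 8663045 to 8664445, minus strand) had 164, 197 and 229 normalized counts in LARP-1::APEX2 libraries and 181, 219.5 and 183 in LARP-1::GFP libraries. The libraries with APEX2 were spread more widely and enclosed those with GFP. The log2 difference was 0.01 ± 0.15 (95% interval -0.32 to 0.34; limma, adjusted p = 0.97), and its sign turned after scaling to equal library totals (-0.05) or with TMM factors (-0.01), which set the median difference of all genes at -0.03 and 0.00 in place of 0.02. Its sign also turned without LARP-1::APEX2 replicate 3 (-0.11) and without LARP-1::GFP replicate 1 (-0.04) or 3 (-0.03), and leaving out 1 library at a time gave -0.11 to 0.13. Its exons overlap those of mrt-1 on the other strand by 61 nt.

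Per exonic length the axis and central region genes did not form separate levels. In LARP-1::GFP libraries him-3 led with 431 ± 39.9 normalized counts per kb, followed by htp-1 with 244 ± 34.9, htp-3 with 225 ± 2.85, htp-2 with 221 ± 29.5, syp-3 with 208 ± 23.4 and syp-2 with 179.9 ± 11.98 (SD, n = 3). From htp-1 down to syp-3, and from syp-3 to syp-2, the ranges of neighbours overlapped. Next came rec-8 with 88.7 ± 4.55, syp-4 with 59.2 ± 8.89 and syp-1 with 34.1 ± 4.48, each apart from its neighbours.

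In LARP-1::APEX2 libraries the first and the last ranks were held by the same genes, with him-3 at 429 ± 30.8 and syp-1 at 33.7 ± 3.54 normalized counts per kb. The change in order was in htp-3, which stood at rank 5 with 175 ± 13.1 normalized counts per kb in LARP-1::APEX2 libraries and at rank 3 in LARP-1::GFP libraries. Here htp-1, at 318 ± 48.4, lay apart from htp-2, at 239 ± 21.0, and the ranges of htp-2, syp-3, htp-3 and syp-2 overlapped from each to the next. Without the 517 nt shared with F13A7.14, and with all reads kept, the mean per kb of syp-1 would be 40.5 with APEX2 and 41.1 with GFP, still the lowest of the 9. However, only 1467 of the 3053 exonic nt of syp-1 are coding, against 1815 of 2044 for syp-4. The last rank therefore holds for exonic length only, and levels per coding length were not analysed.

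**Figure D3:**
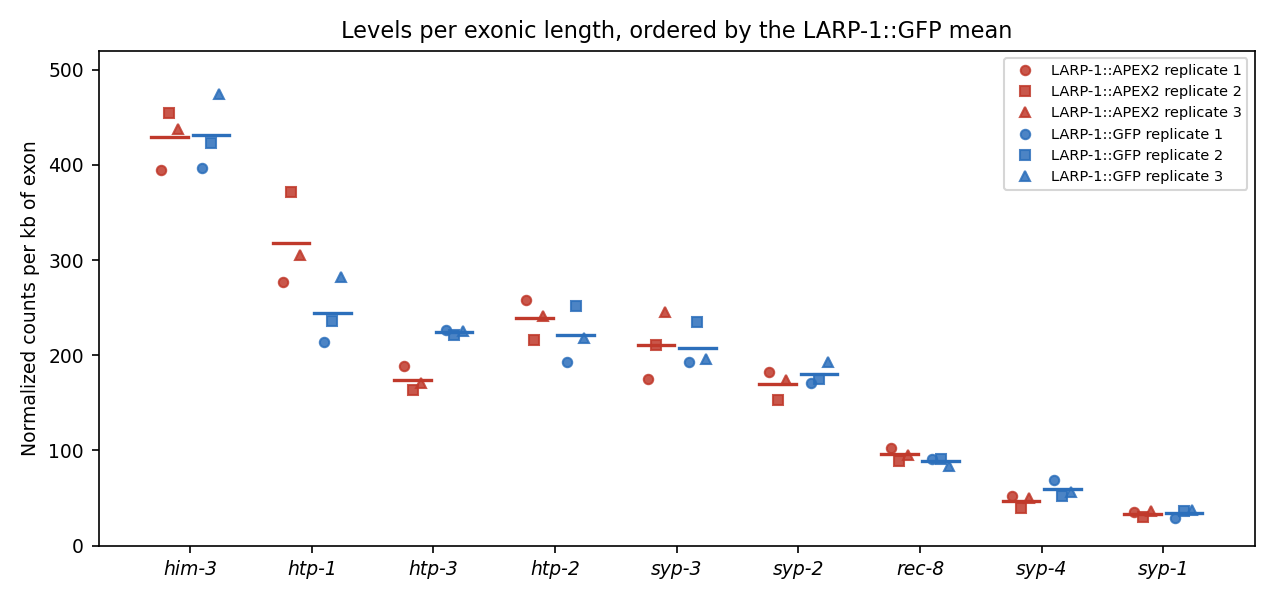
Normalized counts per kb of exon (y axis) for the 9 genes, ordered by their LARP-1::GFP mean, with LARP-1::APEX2 in red and LARP-1::GFP in blue, 1 point per library and bars for means (n = 3). The means run from 429 (LARP-1::APEX2) and 431 (LARP-1::GFP) for him-3 to 33.7 and 34.1 for syp-1, and htp-3 is lower in all LARP-1::APEX2 libraries.

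Set against counting error, replicates of a strain differed little for some of these genes and more for others. Within the groups, the chi-square per degree of freedom of the reads, which is near 1 when only counting error is present, was 0.811 for rec-8, 1.13 for htp-3, 1.15 for syp-2 and 1.52 for syp-1. It was 7.38 for htp-1, 4.00 for syp-3, 3.44 for htp-2, 3.20 for him-3 and 2.26 for syp-4, where the median of 5746 genes with a mean value of at least 90 was 3.76. Spread beyond counting error raises this measure more in genes with more reads, and that set has no upper limit. Its median is thus not matched in level to syp-1 and syp-4, with means of 103 and 109 normalized counts. The 95% half-widths of the 9 log2 differences ran from 0.23 for htp-3 to 0.38 for syp-4. The adjusted p asks for more than these intervals do: the difference of htp-1 exceeded its own half-width and did not pass.

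The 9 genes lie on 3 chromosomes, with 4 on chromosome IV, 3 on I and 2 on V. None is on the X, which is largely silent in worm germ cells through much of prophase. Of the 73 other meiotic genes with a position, 1, the cohesin gene coh-1, is on the X, where 13.4% of all tested genes with a position lie.

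The other parts of the meiotic programme were followed in 6 lists with 76 genes, of which 75 are in the table and 74 were tested; mjl-1 was not analysed here and rip-1 did not reach the mean value of 10. Of the 74 genes 9 rose, 5 fell and 60 did not pass (18.9% called, against 21.7% of all tested genes), and the median log2 difference was 0.05. Leaving out 1 library moved these counts to between 4 and 11 higher and between 2 and 6 lower. The count of higher genes was 4 without LARP-1::GFP replicate 1 or 3 and 5 without LARP-1::APEX2 replicate 2, and the count of lower genes was 2 without LARP-1::GFP replicate 2 or 3. Of the genes that fell, syp-5, com-1, rfs-1 and him-14 had LARP-1::APEX2 means under 10. They passed the filter only through their LARP-1::GFP values. For each list that follows, the share called over all tested genes is the same, 11.6% higher and 10.1% lower.

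Among 12 other genes of cohesin and its regulators 1 rose, 0 fell and 11 did not pass, around a median log2 difference of 0.12. The gene that rose was evl-14, which encodes the Pds5 homolog that binds cohesin. It had 283, 262 and 251 normalized counts in LARP-1::APEX2 libraries and 159, 197 and 180.5 in LARP-1::GFP libraries, with no overlap (log2 difference 0.57 ± 0.13; limma, adjusted p = 0.0079). The kleisins coh-3 and coh-4, which act beside REC-8 on the axis, had differences of 0.24 ± 0.23 and 0.04 ± 0.31 and did not pass (limma, adjusted p = 0.50 and 0.94). Both were highest in LARP-1::APEX2 replicate 1, with 151 and 144 normalized counts, and as near copies of each other they may share reads. Exons of coh-4 also share 327 nt on the same strand with Y45G5AM.7. That gene had 154, 97.0 and 81.6 normalized counts in LARP-1::APEX2 libraries and 68.7, 82.9 and 110.8 in LARP-1::GFP libraries. Its part in the coh-4 value was not tested.

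Of 4 further central region genes syp-5 fell and syp-6, skr-1 and skr-2 did not pass. SYP-5 and SYP-6 are paralogs that act in part interchangeably, and SKR-1 and SKR-2, known from ubiquitin ligases, are also part of the complex. Reads of syp-5 were few, with 5, 13 and 15 in LARP-1::APEX2 libraries and 31, 29 and 36 in LARP-1::GFP libraries. On the normalized scale this was 5.89, 12.1 and 10.4 with APEX2 and 30.4, 32.5 and 41.1 with GFP, far apart (log2 difference -1.81 ± 0.33; limma, adjusted p = 0.0016). The LARP-1::APEX2 mean of 9.47 lay under the filter's 10, so syp-5 was tested only through its LARP-1::GFP mean of 34.7. The call held without any 1 library, with a highest adjusted p of 0.022, where 7.41% of tested genes with a mean value of 10 to 50 were called lower and 4.22% higher. Without LARP-1::APEX2 replicate 1 the difference of syp-5 was -1.53.

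Its paralog syp-6 had 106.1, 66.3 and 84.4 normalized counts in LARP-1::APEX2 libraries and 76.6, 96.3 and 109.6 in LARP-1::GFP libraries, with partial overlap (log2 difference -0.15 ± 0.21; limma, adjusted p = 0.66). For 1 read of syp-6 there were thus 0.0556, 0.183 and 0.123 reads of syp-5 in LARP-1::APEX2 libraries and 0.397, 0.337 and 0.375 in LARP-1::GFP libraries. The strains differed in this ratio in every library; it was chosen after the values had been seen.

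Of 13 regulators of assembly 3 rose, 0 fell and 10 did not pass. The gene akir-1, whose product is needed for the orderly removal of the complex, had 2177, 2381 and 2143 normalized counts in LARP-1::APEX2 libraries and 1299.97, 1265 and 1213 in LARP-1::GFP libraries. This was a clear separation (log2 difference 0.83 ± 0.09; limma, adjusted p = 5.9e-05). The Polo-like kinase gene plk-2, which acts at pairing centres, rose by 0.51 ± 0.14, and by 0.32 without LARP-1::APEX2 replicate 1. The gene cra-1, which the worm needs to polymerise the central region on paired chromosomes, rose by 0.45 ± 0.13 (limma, adjusted p = 0.022 for plk-2 and 0.021 for cra-1). Both calls ended without LARP-1::GFP replicate 1 or 3 or LARP-1::APEX2 replicate 2 (adjusted p up to 0.093 for plk-2 and 0.13 for cra-1). The axis remodelling ATPase gene pch-2 had a difference of -0.22 ± 0.15 and did not pass (limma, adjusted p = 0.33).

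Of 6 tested pairing genes 1 rose, 0 fell and 5 did not pass. The gene that rose, zyg-12, encodes the outer nuclear membrane protein that couples chromosomes to dynein, and its difference was 0.40 ± 0.10 (limma, adjusted p = 0.015). Its call ended without LARP-1::GFP replicate 1 or 3 (adjusted p = 0.067 and 0.061). The gene him-8, for the protein at the pairing centre of the X, had a difference of -0.44 ± 0.18 and did not pass (limma, adjusted p = 0.099).

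Among 32 tested genes of breaks and crossovers 3 rose, 3 fell and 26 did not pass, around a median of 0.01. The helicase gene rtel-1, known to limit crossovers, rose by 1.20 ± 0.26, and the RING finger gene zhp-2 by 1.03 ± 0.15 (limma, adjusted p = 0.0048 and 0.00039). Normalized counts of zhp-2 were 192, 215 and 179 in LARP-1::APEX2 libraries and 99.2, 99.7 and 86.8 in LARP-1::GFP libraries, and 272 nt of its exons are shared on the same strand with D1081.6. The gene rec-1, which shapes where crossovers fall, rose by 0.51 ± 0.17 (limma, adjusted p = 0.046), a call that ended in 12 of the alternative settings.

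The 3 genes of this list that fell all had few reads. They were the MSH4 homolog him-14 (log2 difference -1.73 ± 0.46), the resection gene com-1 (-1.53 ± 0.42) and the RAD-51 paralog gene rfs-1 (-1.28 ± 0.33; limma, adjusted p = 0.016, 0.018 and 0.012). Reads of him-14 were 2, 6 and 18 in LARP-1::APEX2 libraries and 19, 20 and 20 in LARP-1::GFP libraries, and after scaling LARP-1::APEX2 replicate 3, the deepest library, stood at 12.5 normalized counts against at least 18.7 with GFP. The LARP-1::APEX2 means of him-14, com-1 and rfs-1 (6.80, 5.36 and 8.79) lay under the filter's 10. The 3 genes were thus tested only through their LARP-1::GFP means (21.3, 16.7 and 22.7). The calls of him-14 and rfs-1 ended without LARP-1::GFP replicate 2 or 3, and that of com-1 without any 1 of the GFP libraries (limma adjusted p up to 0.079, 0.059 and 0.098). Without LARP-1::APEX2 replicate 1 the differences were -1.24 for him-14, -1.33 for com-1 and -1.41 for rfs-1. Exons of him-14 share 154 nt with nos-2 on the other strand, which rose by 0.38, and those of rfs-1 share 200 nt with fbxl-1 on the same strand, which fell by 0.60 (limma, adjusted p = 0.019 and 0.0044). The part of these neighbours in the values was not tested. The gene spo-11, for the enzyme that makes the breaks, had a difference of -0.12 ± 0.15 and rad-51, for the strand exchange protein, one of -0.12 ± 0.18 (limma, adjusted p = 0.61 and 0.67).

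Of 7 genes of cohesion release 1 rose and 1 fell. The securin gene ify-1 rose by 0.29 ± 0.10 (limma, adjusted p = 0.047), a call that ended in 12 of the alternative settings, with a difference of 0.11 under quantile normalization. The survivin homolog bir-1, of the chromosomal passenger complex, had 252, 247 and 259 normalized counts in LARP-1::APEX2 libraries and 354, 347 and 338 in LARP-1::GFP libraries. These were narrow groups well apart (log2 difference -0.45 ± 0.11; limma, adjusted p = 0.011), and the call ended without LARP-1::GFP replicate 1 alone (0.053).

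**Figure D4:**
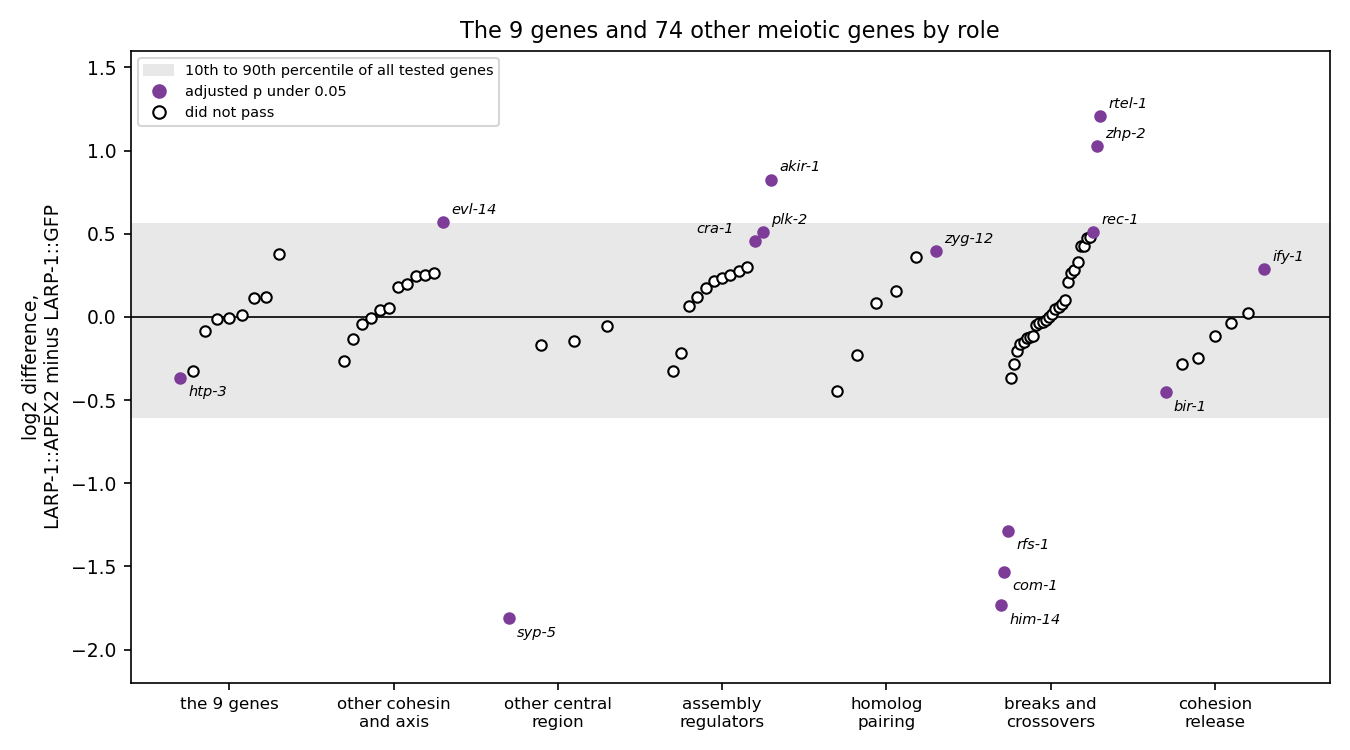
Log2 difference (y axis, LARP-1::APEX2 minus LARP-1::GFP, n = 3 each) of the 9 genes and of 74 other tested meiotic genes in 6 lists (x axis), sorted within each list, with called genes filled and named and a grey band from the 10th to the 90th percentile of all tested genes. Filled points lie above and below 0, from -1.81 for syp-5 to 1.20 for rtel-1.

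The summed markers of germ cells and oocytes were higher in every LARP-1::APEX2 library, those of sperm overlapped, and those of somatic tissues overlapped as normalized counts but were lower in every LARP-1::APEX2 library as a share of the listed reads. Summed over 12 germ cell markers the normalized counts ran from 16471 to 17320 in LARP-1::APEX2 libraries and from 14677 to 15530 in LARP-1::GFP libraries, with 4 genes higher and 1, pgl-1, lower. Over 14 oocyte markers they ran from 36059 to 39303 with APEX2 and from 30579 to 32299 with GFP, with 7 higher and 1 lower. Over 15 markers of somatic tissues they ran from 88572 to 109391 with APEX2 and from 106622 to 120787 with GFP, with 1 higher and 3 lower. As a share of the listed reads the somatic markers were 2.28%, 2.08% and 2.00% in LARP-1::APEX2 libraries and 2.54%, 2.66% and 2.44% in LARP-1::GFP libraries, without overlap. Over 17 sperm markers they ran from 3351 to 3498 with APEX2 and from 3199 to 3402 with GFP, where 14 were tested, 1 was higher and 0 lower, and the sperm surface genes spe-9 and spe-38 were at 0 in 4 libraries each. Over all tested genes 11.6% were called higher and 10.1% lower. The sums weigh genes by their counts. The somatic sum had means of 97529 with APEX2 and 112572 with GFP, of which asp-1 made 46093 and 57360 and vit-2 10565 and 14656. Of the 15 somatic genes 4 had positive and 11 negative differences. In the germ cell sum gld-1, which did not pass, made 9701 with APEX2 and 8524 with GFP. The part of shifts in these sums in the values of htp-3 and the other meiotic genes was not tested.

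Over the 6 libraries, the genes whose log2 values followed the mean of the 9 most closely were nstp-1 (Pearson r = 0.96), ari-1.4 (0.95), dpy-30 (0.94), nst-1 (0.93) and toca-1 (0.93). They are the highest of 4489 candidates with a mean value of at least 50, and all points share the same libraries and scaling. None of the 5 passed between the strains, with differences from -0.20 to -0.04. The mean is not a shared profile of the 9 genes, since pairs of them went both ways. Pearson r over the 6 libraries was -0.89 for htp-1 with syp-4, -0.84 for htp-1 with htp-3 and -0.75 for him-3 with rec-8. It was 0.81 for htp-3 with syp-4 and 0.74 for syp-1 with syp-2. These are the pairs with the largest r in size, picked from all pairs. Both strains enter r, so it also holds the differences between strains given above.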

How the data were processed

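Per the submitters' processing notes, Trim Galore, Bowtie, STAR, featureCounts and DESeq2 were used with build ce11. Their versions, their settings and whether counting was by strand were not given in the sources used here. Normalized counts were what the authors deposited, a signal per gene and library equal to a read count divided by 1 size factor. This was read from the values: in each library 100% of values, multiplied by the factor, gave whole reads (tolerance 0.001 read). Worms from 150 plates were kept 2 h at 25 °C with 3.3 mM biotin-aniline and given 100 mM H2O2 stock for 2 min, per the labels' protocols. Libraries were depleted of ribosomal RNA.

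Gene names were looked up in Ensembl's WBcel235 annotation (ce11), 15705 by symbol and 490 by sequence name, and 67 had no match. Exonic length is the union of annotated exons. Genes with a mean of at least 10 (10534) were tested on log2(value + 1) with limma 3.58.1 (R 4.3.3; trended, robust prior, no covariate), two-sided, with Benjamini-Hochberg adjustment over all tested genes and a threshold of 0.05. Adding 1 shrinks the differences of genes with few reads. Even so, the difference of him-14 was larger in size with limma (-1.73) than with edgeR (-1.51) or DESeq2 (-1.57). Every difference subtracts LARP-1::GFP from LARP-1::APEX2, and errors are standard errors unless named SD. The count tests of edgeR 4.0.16 and DESeq2 1.42.0 on the recovered reads called 1121 and 1017 genes higher and 1095 and 954 lower, against 1219 and 1069 with limma. The fits were tested on simulated data. No replicate pair agreed within sampling noise (chi-square per degree of freedom 2.82 to 12.2). Separate cultures are not named for the replicates. The p-values therefore measure only the spread among these 6 samples, which could be technical.

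The genes and lists were chosen with earlier results of these data known. Named genes were the 9 genes, the called genes of each list, up to 8 per list by p, and the 5 genes most like the mean of the 9. Outside that rule coh-1, coh-3, coh-4, syp-6, skr-1, skr-2, pch-2, him-8, spo-11, rad-51, mjl-1 and rip-1, the markers pgl-1, glh-1, gld-1, spe-9 and spe-38, and the genes whose exons overlap, were named after their values were seen. Sequences were not used here.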

Additional observations from a re-analysis of the deposited data

How the results depend on the processing

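Over 155 refits of single genes among the 9, 136 kept both direction and call, 13 changed sign with no call (him-3, syp-1 and syp-3, none above 0.11 in size) and 6 changed a call. The difference of htp-3 with the replicate number as a block was -0.37 and did not pass (limma, adjusted p = 0.060); same-numbered libraries did not deviate together (correlations -0.16, -0.08 and 0.02), so the number is not taken as a pairing. Under the block 984 genes were higher and 883 lower. Leaving out 1 library at a time gave -0.43 to -0.32 for htp-3 and 0.26 to 0.49 for htp-1, and 76.8 to 134 normalized counts for the summed difference of htp-1 and htp-2 (113 with all libraries). It gave 612 to 1310 genes higher and 550 to 1191 lower over all genes, and 4 to 11 higher and 2 to 6 lower among the 74 meiotic genes. The lowest counts of all genes came without LARP-1::GFP replicate 3 (612 and 550); without LARP-1::GFP replicate 1 they were 744 and 664, and without replicate 2 783 and 638. With a mean of at least 50, 1 meiotic gene, bir-1, was called lower in place of 5, since syp-5, com-1, rfs-1 and him-14 were removed by that filter. Scaling libraries to the same total gave 965 higher and 1219 lower over all genes, against 1219 and 1069, and moved the median log2 difference of all genes from 0.02 to -0.03. Corrected for exonic length, htp-3 was at -0.42 (limma, adjusted p = 0.013). The call of rec-1 ended without LARP-1::GFP replicate 1, 2 or 3 or LARP-1::APEX2 replicate 2 or 3, with no filter, scaled to the same total, with TMM factors, edgeR, DESeq2, the block and the length correction. Depth limits the genes of few reads, syp-5, com-1, rfs-1 and him-14.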
